A study of Caenorhabditis elegans with 32 samples.

Results

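The 628 annotated pseudogenes of Caenorhabditis elegans that carried appreciable 22G RNA are described here across wild-type (WT) and hrde-1 mutant worms, 2 oxygen labels and 4 generations. A feature of the deposited 22G table was taken when its gene biotype is pseudogene in the WBcel235 annotation and its counts summed to 50 or more over the 32 libraries. The table lists 46932 features, of which 2128 are annotated pseudogenes. Of these, 701 had no count in any library, 797 had fewer than 50 counts and 630 had 50 or more, from which E01G4.7 and F39E9.7 were left out by name. The members were thus selected on their summed 22G level over all libraries, and statements about that level are descriptions without a test. Just inside the threshold stood Y22D7AR.12 and Y73F8A.1173 with 50 counts each and Y50D4A.3 with 52.3, and just outside stood Y51B9A.2, F22D3.5 and C08G5.3 with 48.7 each.

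Small RNA was sequenced from whole worms of 16 groups with 2 libraries each, WT or hrde-1, labelled normoxia or hypoxia, in the parents (P0) and in generations F1, F2 and F3. Both genotypes were grown at 20 °C, and for the exposure L4 larvae spent 16 h at 0.1% oxygen before their return to ambient oxygen of about 20%. The labels name neither the hrde-1 allele nor the generations that were themselves exposed, and they do not say that the libraries of a group came from separate cultures. P-values therefore measure the spread between these libraries, which may be technical. Also unstated is whether the libraries of successive generations come from the same lines. If so, they are not independent, although the tests treat them as separate. RNA was treated with a 5′ pyrophosphohydrolase before library construction, a step that lets small RNA with a 5′ triphosphate enter the library.

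A pseudogene is a gene copy whose reading frame is thought to be broken, so that it yields no full protein. In worms, 22G RNA is made by RNA-dependent RNA polymerases that copy an RNA target, and it is therefore antisense to that target, begins with guanosine and carries a triphosphate. Argonaute proteins bind it. HRDE-1 is the nuclear Argonaute of the germ line that carries 22G RNA into nuclei, where its targets are silenced, and it is known for inheritance of silencing across generations. Pseudogenes are among the known targets of the 22G pathways, together with transposons and many protein-coding genes.

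Levels are given as CPM, counts scaled to a common library total, and between libraries with the trimmed mean of M-values (TMM) of edgeR. The libraries held 438436 to 2578063 gene-assigned 22G counts. Both P0 WT normoxia libraries stood apart, with 22G RNA at 6.15% and 9.27% of the counts in the 4 deposited small RNA classes (22G, miRNA, piRNA and snoRNA) against 14.9% to 45.9% in the other 30 libraries. The F3 hrde-1 normoxia libraries also stood apart, with counts on 366 and 333 of the 628 members. The 22G RNA at the hrde-1 gene itself was 359 to 689 CPM in the 16 WT libraries and 245 to 568.1 CPM in the 16 hrde-1 libraries. These ranges overlap, and as a small RNA level they are no check of the mutation.

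Pseudogenes took a similar share of 22G RNA in all arms. In WT they held 14.7% ± 1.20 (SD, n = 8) of the gene-assigned 22G counts under normoxia and 14.6% ± 0.93 under hypoxia. In hrde-1 they held 15.3% ± 0.86 under normoxia and 14.7% ± 0.84 under hypoxia. Single libraries lay between 12.8% and 16.1%. The number of members with a count was lower in the mutant, with medians of 585.5 and 572 in WT under normoxia and hypoxia against 517.5 and 530.5 in hrde-1, and the ranges overlap. The median member level was 13.7 and 10.54 CPM in WT and 6.94 and 8.27 CPM in hrde-1, in the same order. The mean shares thus differed by less than their SD, while the median member level was lower in the mutant arms.

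**Figure D1:**
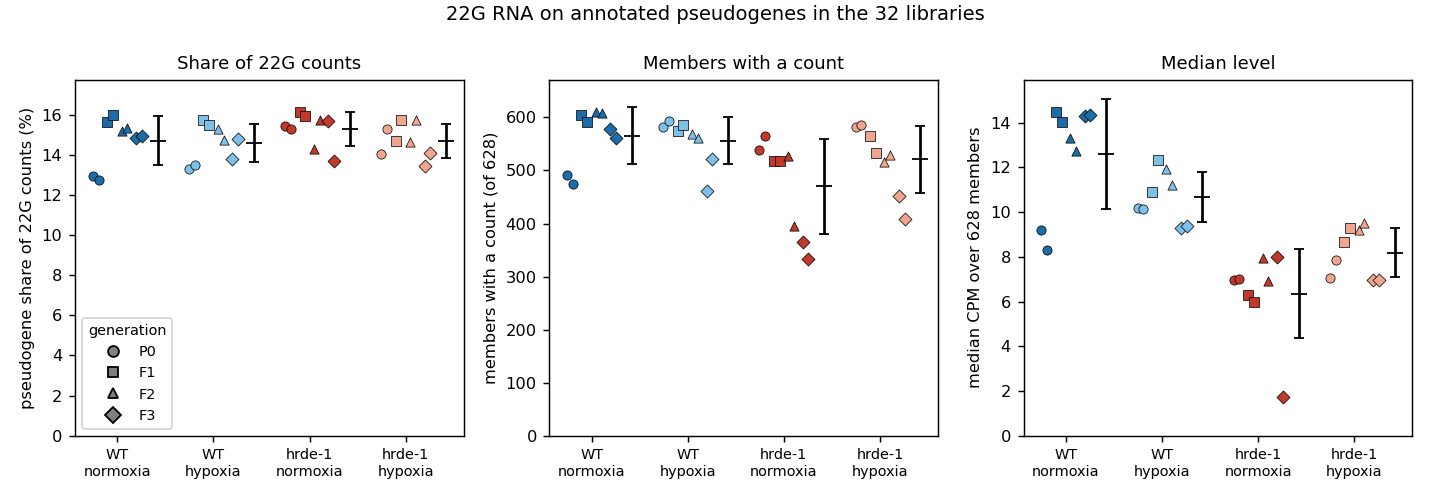
Share of 22G counts on the 628 pseudogenes (%), number of them with a count and their median level (CPM), 1 point per library with the generation as marker and the mean ± SD of the 8 libraries of each arm beside it. The shares of the arms overlap, and the lowest number of members with a count, 333, is an F3 hrde-1 normoxia library.

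Few pseudogenes held most of this RNA. The mean level over the 32 libraries had a median of 12.3 CPM over the members and ranged from 1.60 at the 10th to 380 at the 90th percentile. Some 136 members exceeded 100 CPM and 294 lay under 10 CPM. The 12 most abundant members held 49.6% of all member counts, and 13 members held 50%. Per kilobase of exon the median member had 14.2 CPM (quartiles 3.07 and 80.2), against 11.8 CPM (3.04 and 28.1) for the 10174 protein-coding genes with 50 or more counts. The upper quartile was thus higher for pseudogenes than for protein-coding genes under the same threshold, while the lower quartiles were alike.

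The members were longer than the pseudogenes without 22G counts. Their median exon length was 1011 bases, against 871 for pseudogenes with 1 to under 50 counts and 601 for those with none. Some 89.97% had 2 or more exons, against 58.1% of those without a count. Pseudogenes of tRNA made up 19.8% of those without a count and 0.80% of the members. On chromosome X 50% of the annotated pseudogenes were members (89 of 178) and on chromosome I 47.9% (90 of 188), but on chromosome V, the richest in pseudogenes, 16.8% (146 of 867). Only 134 members have a gene name, and 622 were matched in the RefSeq gene table. An exon of another annotated gene overlapped 65 members, 47 of them on the opposite strand only, where reads of the neighbours cannot be told apart since the strand setting of the counting is not given in the sources used here. The other 563 overlapped no other annotated exon in this check, which left out piRNA genes.

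The most abundant pseudogene was Y39E4B.14 on chromosome III (13162475 to 13164864, plus strand), with 9.43% of the member counts. It had 7126, 9281 and 11220 CPM in the lowest, the median and the highest WT normoxia library, and 12740, 21830 and 24890 CPM in the hrde-1 normoxia libraries. All 8 mutant libraries lay above all 8 WT libraries. Next came Y52B11A.18 on chromosome I, with a median of 5784 CPM in WT normoxia and 13090 CPM in hrde-1 normoxia, and cars-2, named as a cysteinyl-tRNA synthetase gene, with 8233 and 10480 CPM. Y38H8A.8 on chromosome IV showed the widest gap of the 12, at 1234 to 2526 CPM in WT and 5539 to 8013 CPM in hrde-1 under normoxia. The other 8 of the 12, Y46H3C.6, F37H8.2, K08B4.5, F32A11.5, Y37H9A.2, Y71G12B.28, Y59H11AR.6 and R03D7.3, had overall means of 3023 to 7889 CPM.

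Over the 32 libraries, the features whose log2 CPM most resembled Y39E4B.14 were the protein-coding genes Y71A12B.10 (Pearson r = 0.99), T26E3.7 (0.98) and B0250.8 (0.98). For Y52B11A.18 they were gadr-5 (0.97), Y77E11A.3 (0.97) and Y53F4B.5 (0.96). For cars-2 they were gtf-2A2, xnp-1 and M117.3 (0.92, 0.92 and 0.91). These are descriptions over libraries that share genotype, generation and depth.

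Loss of HRDE-1 went with lower 22G RNA on many pseudogenes and higher 22G RNA on fewer, among them the most abundant. Under normoxia, 8 hrde-1 libraries were compared with 8 WT libraries with the quasi-likelihood test of edgeR, with the generation as a term. Of the 628 members 500 passed the filter on low counts. Of those tested 50 were higher and 185 lower in hrde-1 at an adjusted p under 0.05, which is 47.0% of them, against 28.0% of all 9279 features tested. The higher share, 10%, was near the 11.7% of all features, and the lower share, 37.0%, stood against 16.3%. The median log2 fold change of the members tested was −0.88, against −0.18 over all features, and it stayed at −0.88 with the members at 0 in one genotype set to their bound. No overlap between the 8 and 8 libraries was seen for 27 members higher and 66 lower in the mutant, 5.4% and 13.2% of those tested, against 4.97% and 6.29% of all features.

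Under hypoxia, 86 of the 496 members tested were higher and 167 lower in hrde-1, together 51.0%, against 38.1% of all 9213 features tested. The shares by direction were 17.3% higher and 33.7% lower, against 18.0% and 20.1% of all features. The median log2 fold change was −0.34 over the members tested and −0.02 over all features. The groups did not overlap for 34 members higher and 75 lower, which is 6.85% and 15.1% of those tested against 5.43% and 7.16% of all features. The hypoxia libraries are separate from the normoxia libraries, but both comparisons set the same mutant against the same WT. In both of them 133 members were lower (71.9% of the normoxia list and 79.6% of the hypoxia list). A further 44 were higher in both (88% and 51.2%), and 0 were called in opposite directions. The overlap over all features is not given, so these shares do not set the members apart.

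The genotype difference was present in each generation. For the 185 members lower under normoxia the median log2 ratio of hrde-1 to WT, computed on mean CPM + 1, was −1.29 in P0, −1.94 in F1, −1.89 in F2 and −2.37 in F3. In P0, 175 of the 185 were below 0, and in F2 all 185 were. For the 50 higher members the medians were 2.16, 1.59, 1.63 and 1.66 in the same order. Since these members were called on the same libraries, the medians are descriptions. Without the P0 libraries 39 members were higher and 174 lower under normoxia, and without the F3 libraries 59 and 192.

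**Figure D2:**
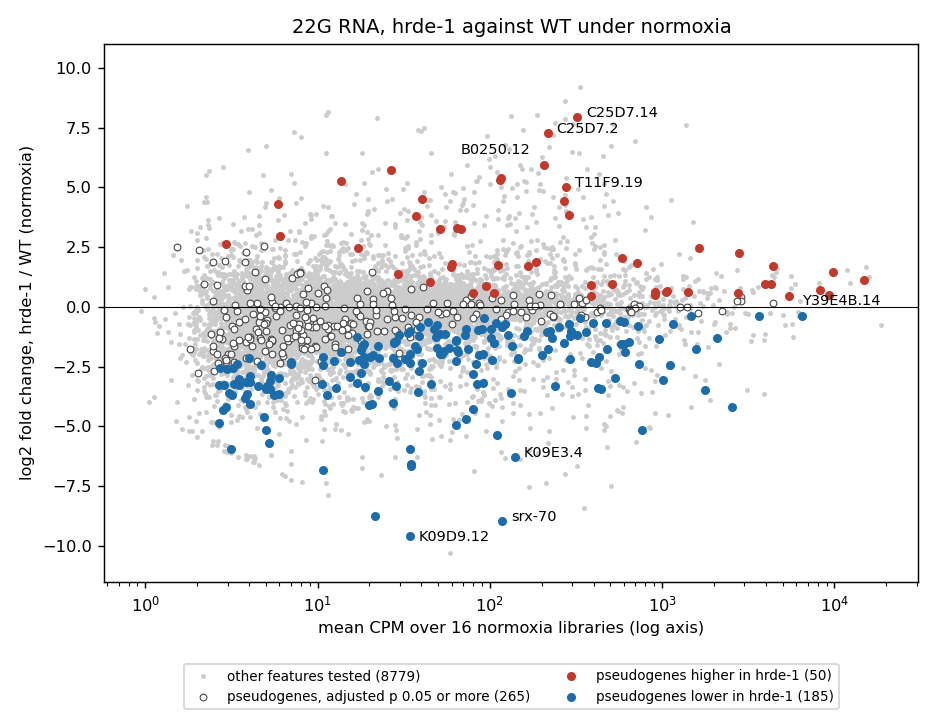
Fitted log2 fold change of 22G RNA in hrde-1 against WT under normoxia by mean CPM over the 16 libraries (log axis), 1 point per feature tested. With TMM scaling 50 pseudogenes were higher (red) and 185 lower (blue) in hrde-1; several of the most abundant are among the higher ones.

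The size of the difference depends on the scale. CPM compares features within the 22G RNA. When library size was the sum over the 4 small RNA classes, the all-feature median moved from −0.18 to 0.18 under normoxia and from −0.02 to −0.37 under hypoxia, and the members' medians became −0.58 and −0.69. On that scale 32 members were higher and 85 lower under normoxia, and 58 higher and 226 lower under hypoxia. The share of all features called is not given for fits with another scale, test, filter or set of libraries, here and elsewhere. Their counts therefore do not set the members apart from the whole table. The members' median was below that of all features on both scales and in both oxygen arms. A change of library size shifts all features nearly alike, so it cannot test that difference.

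The strongest losses lay on chromosome V. The pseudogene srx-70, named as a member of a nematode chemoreceptor family, lies on the minus strand at 3933960 to 3934950. Under normoxia it had 73.8, 281.5 and 300.4 CPM in the lowest, median and highest of the 8 WT libraries, and 0, 0.27 and 0.79 CPM in the 8 hrde-1 libraries. The groups did not overlap, and the log2 fold change was −8.97 ± 0.32 (edgeR adjusted p = 1.44e-13). Here and below, the value after ± on a log2 fold change was derived from the test. It is the absolute log2 fold change divided by the square root of the F statistic, and it is not a counting-error interval. Under hypoxia 2394 counts in WT stood against 2 counts in hrde-1, a ratio of 1040 (exact 95% interval 288 to 8595, counting error only).

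Further along the chromosome, K09D9.11 (3997124 to 4001465) and K09D9.12 (4002327 to 4004309) were nearly or wholly without counts in the mutant. K09D9.12 had 49.8 to 92.2 CPM in the WT normoxia libraries and 60.3 to 94.1 CPM in the WT hypoxia libraries. It had no count in any of the 16 hrde-1 libraries, which is at least 257-fold lower under normoxia and at least 317-fold lower under hypoxia when 3 counts over the 8 mutant libraries are taken as the floor. K09D9.11 was at least 188-fold lower under normoxia. Between srx-70 and K09D9.12 and within 20 kb of them, 4 features had 50 or more counts, these 3 and the protein-coding cytochrome P450 gene cyp-34A6 (2.08 to 21.2 CPM in WT normoxia and 0 in every hrde-1 normoxia library). All 4 were lower in hrde-1 with no overlap, and what the mutant genome holds at this place is not given in the labels.

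Other pseudogenes lost nearly all 22G RNA as well. K09E3.4 on chromosome X (17119294 to 17120907) had 106 to 357 CPM in WT normoxia and 0 to 12.9 CPM in hrde-1 normoxia, a log2 fold change of −6.27 ± 0.41 (edgeR adjusted p = 8.49e-10). On the left end of the X chromosome, Y73B3A.32 and Y73B3A.7 fell by 6.67 ± 0.49 and 5.97 ± 0.46 on the log2 scale. Both had at least 18.7 CPM in every WT normoxia library and at most 2.88 CPM in every mutant one. Their exon lengths are equal, 585 bases on opposite strands, and whether reads were shared between these 2 pseudogenes was not tested. Y68A4A.12 on chromosome V had 37.3 to 85.0 CPM in WT and 0 to 2.88 CPM in hrde-1 under normoxia. Y37H2B.1 had 255 counts in the WT normoxia libraries and 1 in the hrde-1 normoxia libraries, a ratio of 267 (47.5 to 10580). Of the members lower under normoxia, 104 had a fitted log2 fold change under −2 and 25 under −4.

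The 3 pseudogenes C25D7.12, C25D7.14 and C25D7.2 are neighbours on chromosome V (15032142 to 15038835). C25D7.14 and C25D7.2 had the largest log2 fold changes among the gains under normoxia, while B0250.12 and cest-15 ranked above C25D7.12. C25D7.14 had 0 to 4.99 CPM in the 8 WT normoxia libraries, with a median of 2.53. In hrde-1 normoxia it had 119.3 and 45.4 CPM in the P0 libraries, 1110 and 900 in F1, 699 and 557 in F2 and 976 and 728 in F3. The log2 fold change was 7.95 ± 0.34 (edgeR adjusted p = 1.49e-12). C25D7.2 and C25D7.12 were higher by 7.26 ± 0.38 and 5.4 ± 0.28 on the log2 scale. Each of the 3 had no overlap between genotypes under normoxia. The P0 hrde-1 libraries were the lowest of their arm for all 3.

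Within 20 kb of the C25D7 trio 9 other features had 50 or more counts. One of them, the protein-coding gene C25D7.5, was also higher in hrde-1 without overlap, at 321 to 768 CPM against 8.30 to 64.5 CPM. The other 8, among them sdc-3 (22 to 92.9 CPM in hrde-1 and 33.8 to 61.4 CPM in WT), overlapped between genotypes. The gain at this place was thus a feature of 4 of the 12 genes. C25D7.14 and C25D7.2 have equal exon lengths, 886 bases, on opposite strands. Their sequences were not compared, and whether reads were shared between them was not tested, so they may not be separate gains.

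Further pseudogenes had high 22G RNA in the mutant. T11F9.19 (chromosome V, 11491829 to 11492590) had 8.30 to 21.5 CPM in WT normoxia and 221 to 803 CPM in hrde-1 normoxia, a log2 fold change of 5.03 ± 0.20 (edgeR adjusted p = 7.42e-13). B0250.12, near the right end of chromosome V, had 1.81 to 13.8 CPM in WT and 170 to 695 CPM in hrde-1 under normoxia. C47G2.6 on chromosome II rose by 5.29 ± 0.37 and Y11D7A.1 on chromosome IV by 5.27 ± 0.66 on the log2 scale. The pseudogene cest-15, whose exons overlap those of the splicing factor gene rsp-1 on the opposite strand, had 0 to 2.41 CPM in WT and 11.6 to 121 CPM in hrde-1. Under hypoxia W05B2.3 was also among the largest gains, with 115 counts in hrde-1 against 3 in WT, a ratio of 44.1 (14.7 to 217). The major sperm protein pseudogene msp-42 had no count in the 8 WT hypoxia libraries and 92 counts in hrde-1, at least 35.3-fold higher, though it was also at 0 in 2 of the 8 mutant libraries.

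**Figure D3:**
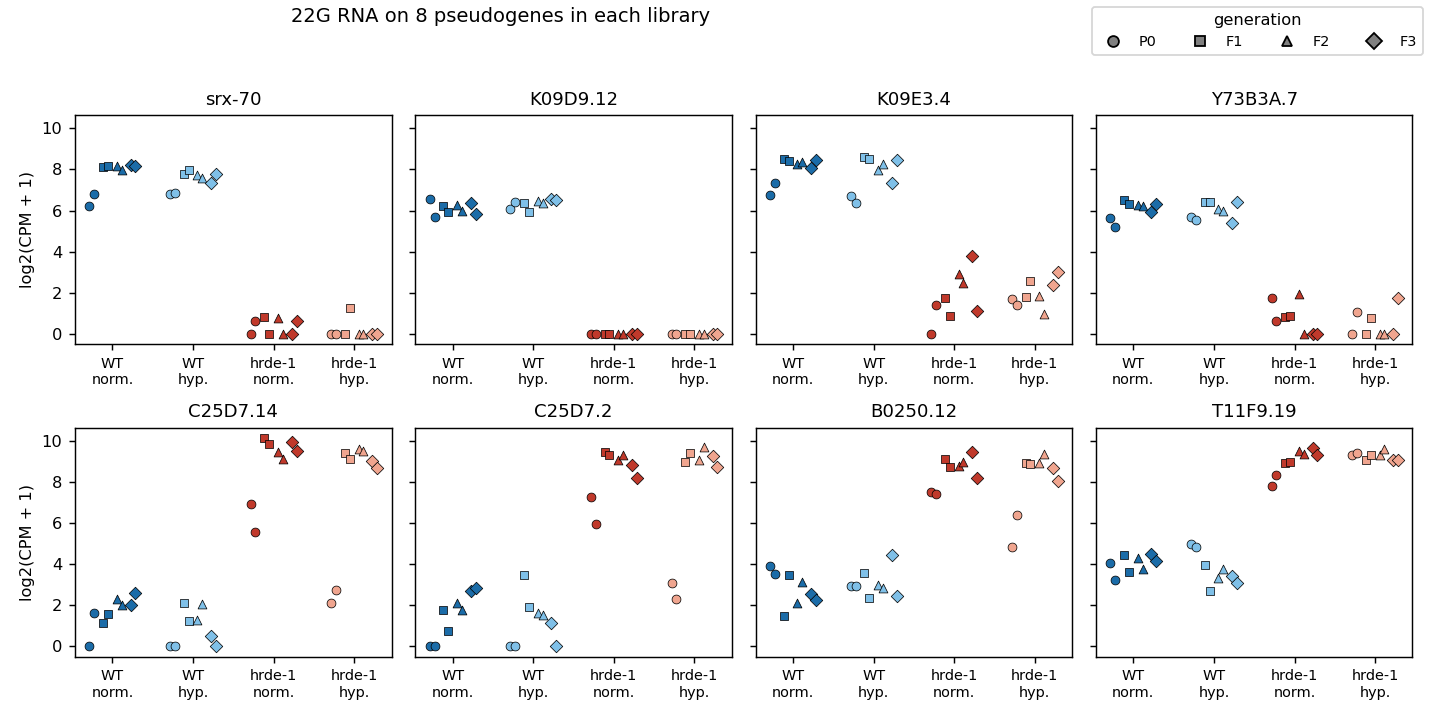
Level of 8 pseudogenes, as log2(CPM + 1), in each of the 32 libraries by genotype and oxygen label (norm., normoxia; hyp., hypoxia), with the generation as marker. The 4 in the upper row are low or at 0 in every hrde-1 library, and the 4 in the lower row are high in hrde-1, with the P0 hypoxia libraries of C25D7.14 and C25D7.2 near the WT level.

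Families were read from the gene names of the members, and names starting with fbxa, fbxb, fbxc or sdz were taken as F-box. The sdz names do not themselves state an F-box. Under hypoxia sdz-3 (log2 fold change 1.31 ± 0.22) is among the higher F-box members given below and sdz-34 (−4.32 ± 1.35) among the lower. Under normoxia no sdz member was called. F-box pseudogenes, copies of genes whose proteins select substrates for ubiquitin ligases, were the largest named family: of 40 tested under normoxia 2 were higher and 17 lower in hrde-1, and of 38 tested under hypoxia 4 were higher and 18 lower. The lower shares of 42.5% and 47.4% stood beside 37.0% and 33.7% of all members tested and 16.3% and 20.1% of all features, and the difference from the other members was not tested. Examples chosen after their values were seen are fbxa-149 (514 to 1216 CPM in WT and 62.5 to 172 CPM in hrde-1 under normoxia) and fbxa-117 (446 to 810 and 74.9 to 172 CPM). Their log2 fold changes were −2.98 ± 0.23 and −2.37 ± 0.18. In the opposite direction, fbxa-168 had 1.82 to 16.9 CPM in WT and 10.3 to 293 CPM in hrde-1 and rose by 3.27 ± 0.55. With the 4 small RNA classes as library size, the F-box counts were 2 higher and 6 lower under normoxia and 3 and 25 under hypoxia.

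MATH and BATH pseudogenes, copies of a family that pairs a MATH with a BTB domain, were mostly lower in hrde-1 with TMM scaling. Of 7 tested, 0 were higher and 6 lower in each oxygen arm. The exception was bath-22, at a log2 fold change of −0.29 ± 0.13 under normoxia and 0.01 ± 0.12 under hypoxia. bath-11, the most abundant, had 473 to 913 CPM in WT and 307 to 589 CPM in hrde-1 under normoxia, and math-43 had 6.15 to 39.9 and 0 to 6.93 CPM. On the 4-class scale 1 of the 7 was lower under normoxia and 7 of 7 under hypoxia. Of 7 chemoreceptor pseudogenes tested under normoxia 4 were lower, and under hypoxia 1 of 6, srx-70. Among BTB pseudogenes 1 of 4 was lower under normoxia and 1 of 3 under hypoxia, and among C-type lectins 1 of 4 and 1 of 5. The 395 unnamed members tested under normoxia gave 43 higher and 146 lower, and the 396 under hypoxia 72 and 126. Over all features 11.7% were higher and 16.3% lower under normoxia, and 18.0% and 20.1% under hypoxia. The families were not tested against these shares, and most of them hold few members.

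Of 4 pseudogenes of small RNA factors 3 could be tested. The Argonaute pseudogene wago-2 had 595 to 922 CPM in WT and 440 to 855 CPM in hrde-1 under normoxia, a log2 fold change of −0.07 ± 0.13 that did not pass the test and was 0.24 ± 0.45 on the 4-class scale. Under hypoxia it was −0.39 ± 0.16 (edgeR adjusted p = 0.0693), and on the 4-class scale −0.74 ± 0.17 (adjusted p = 0.000846), a call of lower. The Piwi-like pseudogene prg-2 had 50.8 to 83.0 and 16.1 to 113 CPM and did not pass it either. Under hypoxia prg-2 was higher by 0.42 ± 0.14 (edgeR adjusted p = 0.0231) and the helicase pseudogene drh-2 by 2.19 ± 0.49 (adjusted p = 0.00119). On the 4-class scale the prg-2 difference was 0.07 ± 0.17 (edgeR adjusted p = 0.775). The last of these 4 pseudogenes, wago-11, did not pass the filter. The PUF pseudogenes puf-4 and puf-10, named after RNA-binding translational regulators, did not pass the test in either arm.

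Some called members lay beside one another, which was not compared with the spacing of all members. Taking members called lower that lie within 20 kb of the next, 61 of the 185 under normoxia and 63 of the 167 under hypoxia fell into 23 runs of 2 or more in each arm. The largest normoxia run, of 7, spans the F-box and C-type lectin pseudogenes from fbxa-207 to fbxa-205 on chromosome V (16919780 to 16946346). In it Y102A5C.35 had 272 to 637 CPM in WT and 104 to 238 CPM in hrde-1, but the protein-coding gene Y102A5C.4 between the members had 472 to 673 CPM in WT and 1327 to 3194 CPM in hrde-1. Runs of 6 and 5 lay on the X chromosome at 131022 to 177000 and at 230433 to 270029. Some members of these runs have equal exon lengths, such as fbxa-204 and fbxa-205 (591 bases) and AC8.7 and AC8.12 (744 bases). Whether reads were shared between such neighbours was not tested, so members of a run may not be separate losses. Of the 50 members higher under normoxia 3 formed a run, C25D7, and of the 86 higher under hypoxia 13 fell into 6 runs, one of them B0250.12 with its neighbour B0250.3. By chromosome, the members lower under normoxia were 32 of 76 tested on I, 27 of 92 on II, 14 of 56 on III, 29 of 89 on IV, 47 of 112 on V and 36 of 75 on X. Over all features on all chromosomes 16.3% were lower. The share of all features on each chromosome is not given, so these counts do not set a chromosome apart.

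Lists of 22G RNA at marker genes were compared between genotypes beside these results, and their part in them was not tested. The summed 22G level at 14 sperm genes was 212 to 545 CPM in WT and 38.9 to 124 CPM in hrde-1 under normoxia, with no overlap, and spe-11 was at 0. Of the 4 sperm genes tested, 0 were higher and 1 lower under normoxia and 2 were higher and 1 lower under hypoxia. Their median log2 fold change was 0.41 under normoxia and 2.355 under hypoxia. It was thus above 0 while the sum was lower, so the sum does not speak for each sperm gene. The sum at 16 oocyte and germ line genes was 1089 to 1275 CPM in WT and 1201 to 1909 CPM in hrde-1 under normoxia, with perm-4 and gld-1 at 0. Of 13 tested, 5 were higher and 0 lower under normoxia and 4 and 2 under hypoxia. These sums are small RNA against the genes and not their transcripts, and in whole worms fewer cells of a type and less RNA per cell cannot be told apart.

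The remaining lists held few genes that could be tested. Both muscle genes tested were lower in hrde-1 in each arm, and unc-27 was at 0. The intestine list gave 0 higher and 0 lower of 6 under normoxia and of 5 under hypoxia. The neuron list gave 0 and 0 of 5 under normoxia and 1 higher and 2 lower of 6 under hypoxia. The hypodermis list, with dpy-7 at 0, had 0 genes tested under normoxia, and 1 higher and 0 lower of 2 under hypoxia. Of 37 genes of the HRDE-1 and 22G pathways tested, 8 were higher and 2 lower under normoxia, and 9 were higher and 8 lower under hypoxia.

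Hypoxia in the P0 generation went with lower 22G RNA on a small set of pseudogenes, shared in part by the genotypes. In P0 WT, of 548 members tested 0 were higher and 10 lower in the 2 hypoxia libraries than in the 2 normoxia libraries (1.82%, against 0.702% of all 10121 features tested, 0.534% being lower). The spread for this test was shared over all 16 groups. Y43F8B.8, a pseudogene of 1 exon on chromosome V (19483637 to 19483895), had 1246 and 1238 CPM under normoxia and 142.6 and 140.7 CPM under hypoxia. Its log2 fold change was −3.13 ± 0.36 (edgeR adjusted p = 7.25e-06). Y9D1A.2 fell by 2.75 ± 0.50 on the log2 scale, from 359 and 370 CPM to 53.4 and 54.6 CPM. Y105C5A.1271, Y17D7C.3, T08B6.2, Y105C5A.14, W05H12.2 and Y59H11AR.6 were lower by 1.19 to 2.19 on the log2 scale, and for all 8 the lower of the normoxia values exceeded both hypoxia values.

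The P0 WT calls changed with the scale and with each library left out, and the P0 WT normoxia libraries are those with the low 22G share; the part of that share in the result was not tested. On the 4-class scale the all-feature median was 2.70, and 383 members were higher and 0 lower. There Y43F8B.8 and Y9D1A.2 kept negative values of −0.45 and −0.07, and the other 6 named members turned positive. The named members stayed below the median of all features, but a change of library size shifts all features nearly alike and cannot test this. With each of the 4 P0 WT libraries left out in turn, 3 to 5 members were lower (3 without hypoxia library 1, 3 without hypoxia library 2, 5 without normoxia library 1 and 3 without normoxia library 2). Y43F8B.8 and Y105C5A.1271 passed the test in all 4 of these fits, and T08B6.2, W05H12.2 and Y17D7C.3 in 0 of them. A fit of the compared libraries alone gave 19 higher and 45 lower.

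In P0 hrde-1, 3 of 548 members were higher and 11 lower under hypoxia (2.55%, against 0.711% of all features, of which 0.0790% were higher and 0.632% lower). The 3 pseudogenes of C25D7 had the largest falls. C25D7.14 had 119.3 and 45.4 CPM in the normoxia libraries and 3.33 and 5.63 CPM in the hypoxia libraries, a log2 fold change of −4.22 ± 0.43 (edgeR adjusted p = 2.43e-06). C25D7.2 fell by 4.16 ± 0.49 and C25D7.12 by 3.86 ± 0.50 on the log2 scale. In the F1, F2 and F3 hrde-1 hypoxia libraries C25D7.14 had 399.5 to 759.5 CPM, so that the low level was seen in P0 and in no later generation of that arm. The 3 passed the test with each P0 hrde-1 library left out.

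Y43F8B.8 fell in the mutant too, from 301 and 406 CPM to 31.9 and 28.1 CPM (log2 fold change −3.55 ± 0.37). T02G6.10, Y17D7C.3, Y9D1A.2 and Y105C5A.14 were lower by 1.76 to 3.26 on the log2 scale. T11F9.19, already high in the mutant, was higher under hypoxia (221 and 321 CPM against 636 and 680 CPM), as were H06O01.4 and Y18D10A.22. The calls of T11F9.19 and Y18D10A.22 were lost with each of the 4 libraries left out, those of H06O01.4, T02G6.10 and Y9D1A.2 in 3 of these 4 fits, and those of Y105C5A.14 and Y17D7C.3 in 2. Without hypoxia library 1 the number called was 5, and without normoxia library 2 it was 4. With the 4-class library size 2 were higher and 6 lower, and without the F3 libraries, which set part of the shared spread, 14 and 26.

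Of the 10 members lower in P0 WT, 5 were also lower in P0 hrde-1, which has its own control libraries: Y105C5A.1271, Y105C5A.14, Y17D7C.3, Y43F8B.8 and Y9D1A.2 (50% and 45.5% of the lists). The overlap over all features is not given. Of the 5 members, Y43F8B.8 kept its call with each library left out in both genotypes. In WT the call of Y17D7C.3 was lost in 4 of 4 such fits, that of Y105C5A.14 in 3 and that of Y9D1A.2 in 2. The difference of the hypoxia response between genotypes was tested itself. At P0, 0 members passed in edgeR (0.0593% of all features did, 0.0494% higher and 0.00988% lower) and 0 with the DESeq2 Wald test, while 16 of 548 had an unadjusted p under 0.05. With no filter on low counts 3 passed. On the 4-class scale 215 members passed, all with a more negative effect in hrde-1, and the all-feature median of the difference was −2.32. With TMM scaling, members called in 1 genotype are therefore not shown to differ between genotypes at P0, and the answer depends on the scale.

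**Figure D4:**
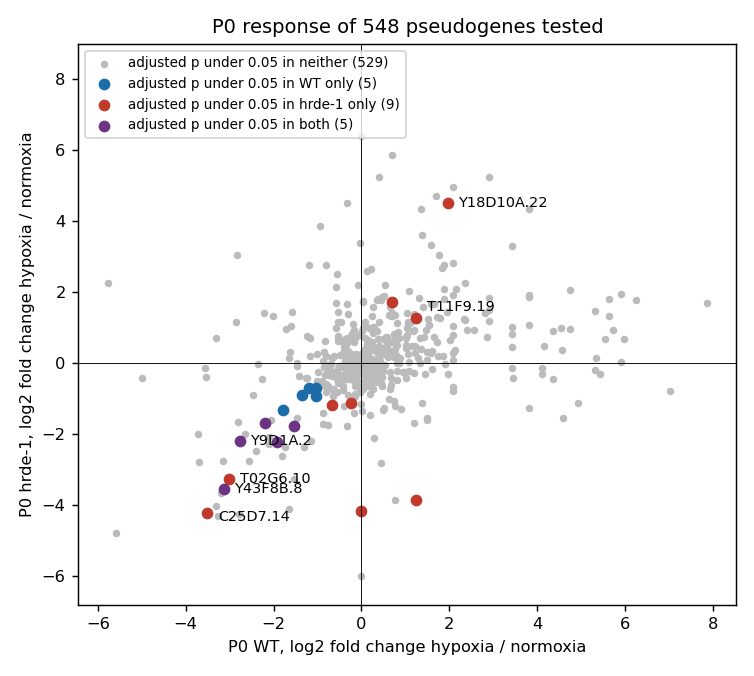
Fitted log2 fold change of hypoxia against normoxia at P0 in WT (x axis) and hrde-1 (y axis) for the 548 pseudogenes tested, with TMM scaling; points far out at few counts did not pass the test. The 5 called in both lie in the lower left, where 6 of the 8 named WT values turn positive on the 4-class scale.

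In the WT descendants, the hypoxia label went with lower 22G RNA on 43 pseudogenes and higher on 1. The 6 hypoxia and 6 normoxia libraries of F1, F2 and F3 were compared with the generation as a term, and 463 members could be tested. The 44 called are 9.50% of them, against 4.63% of all 8485 features. The lower calls were 9.29% against 3.25% of all features and the higher calls 0.22% against 1.38%. The median log2 fold change was −0.24 over the members tested and −0.01 over all features. The groups did not overlap for 22 members lower and 1 higher, 4.75% and 0.22% of those tested, against 2.57% and 1.50% of all features.

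W04B5.2 on chromosome III (2424355 to 2425678) had the largest fall. It had 169 and 80.9 CPM in the F1 normoxia libraries, 92.0 and 134.6 in F2 and 66.2 and 283.6 in F3. In the hypoxia libraries it had 20.1 and 9.59, 11.9 and 10.6, and 33.1 and 28.2 CPM. The groups did not overlap, and the log2 fold change was −2.93 ± 0.38 (edgeR adjusted p = 0.00207). In the 12 hrde-1 libraries of F1 to F3 it had 0 to 38.8 CPM, and 11 of the 12 lay below every WT hypoxia library of these generations. In P0 WT, where it was not called, it had 159.8 and 153.5 CPM under normoxia and 20.9 and 24.2 CPM under hypoxia.

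Y24F12A.4 on chromosome IV had 331 to 789 CPM under normoxia and 91.7 to 293 CPM under hypoxia, a fall of 1.94 ± 0.30 on the log2 scale. The F-box pseudogene fbxc-38 had 34.1 to 118 CPM and 2.74 to 31.3 CPM and fell by 2.23 ± 0.45. T13F2.9, M117.7 and Y116F11A.4 fell by 1.74 to 2.53 from normoxia means of 11.9 to 14.4 CPM. The neighbours Y51H7C.15 and Y51H7C.42 on chromosome II fell by 1.64 ± 0.34 and 1.54 ± 0.25. The single higher member, C06A1.4, had 92.8 to 116 CPM under normoxia and 129 to 167 CPM under hypoxia, without overlap, a log2 fold change of 0.43 ± 0.10 (edgeR adjusted p = 0.0278). Its call was lost with 9 of the 12 libraries left out in turn.

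All 43 lower members had a log2 ratio below 0 in each of F1, F2 and F3, with medians of −0.68, −0.64 and −1.01, which their selection favours. In the P0 WT libraries, which did not enter that fit, 26 of the 43 were below 0 and the median was −0.34, against 0.15 over all 628 members. Of the 10 members lower in P0 WT, 8 were among the 43 (80% and 18.6% of the lists), including Y43F8B.8, Y9D1A.2 and Y17D7C.3. The overlap over all features is not given. In the hrde-1 mutant 14, 16 and 21 of the 43 were below 0 in F1, F2 and F3, with medians of 0.50, 0.18 and 0.03. In P0 hrde-1 25 of the 43 were.

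**Figure D5:**
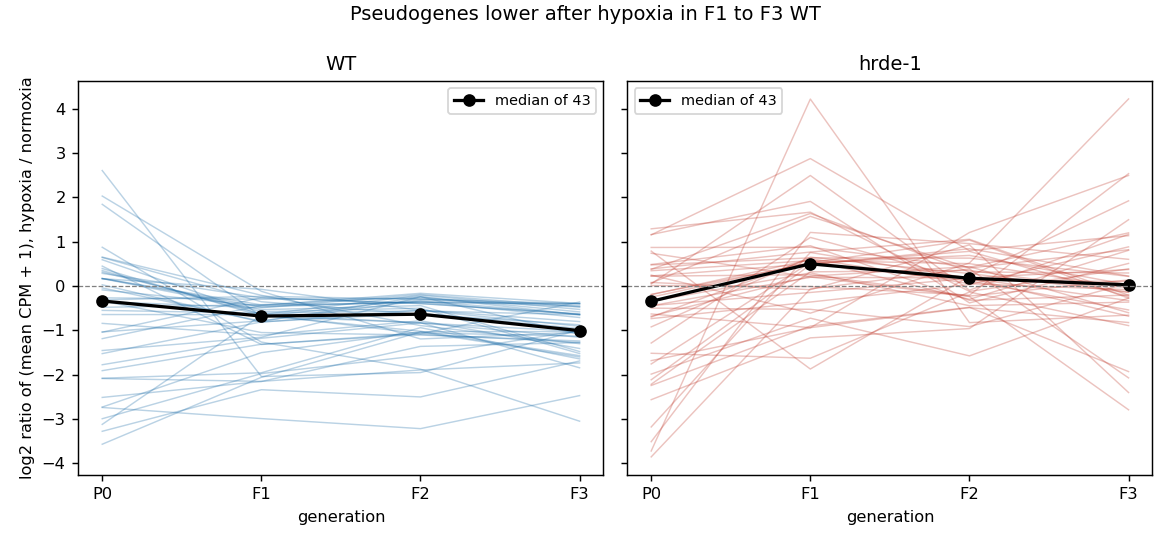
Log2 ratio of hypoxia to normoxia, from the mean CPM + 1 of 2 libraries a group, by generation for the 43 pseudogenes lower in the F1 to F3 WT hypoxia libraries; thin lines are members and the black line their median. In WT the median is below 0 in each generation, and in hrde-1 it is below 0 in P0 only.

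The number of WT calls moved with single libraries and with the scale. It was 24 without F1 hypoxia library 1, 24 without F1 normoxia library 1, 24 and 26 without F2 normoxia library 1 or 2, and 20 without F3 normoxia library 2. With the 4-class library size 3 members were higher and 17 lower, all 17 among the 43, and the median of all features was 0.19. The calls of W04B5.2, Y24F12A.4 and Y51H7C.42 held with each library left out, and those of M117.7, T13F2.9, Y116F11A.4, Y51H7C.15 and fbxc-38 were lost in 1 to 6 of the 12 fits.

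In the hrde-1 descendants 1 of 423 members tested passed, C09G1.3 on chromosome X (0.236%, against 0.176% of all 8523 features, 0.0704% higher and 0.106% lower). It had 316 to 961 CPM in the 6 normoxia libraries and 218 to 525 CPM in the 6 hypoxia libraries, which overlap. Its log2 fold change was −0.75 ± 0.14 (edgeR adjusted p = 0.0488), and the call was lost with 10 of the 12 libraries left out in turn. It was lower in WT as well, where it had 589.5 to 746 and 442 to 570.5 CPM. An unadjusted p under 0.05 was found for 66 of the 423, and the DESeq2 Wald test called 10 higher and 9 lower. Leaving out F2 normoxia library 1 gave 9 calls, F3 normoxia library 2 gave 3, F2 hypoxia library 2 gave 1, and each of the other 9 libraries gave 0. The 6 and 6 libraries did not overlap for 3 members higher and 0 lower under hypoxia, against 0.727% and 0.258% of all features.

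The response of the descendants differed between genotypes on 75 members. In the test of the difference itself over F1 to F3, 65 of 548 members had a more positive and 10 a more negative hypoxia effect in hrde-1 than in WT (13.7%, against 8.61% of all features). The more positive calls were 11.9% against 7.25% of all features, and the more negative 1.82% against 1.35%. The median difference was 0.50 over the members tested and 0.16 over all features. For 62 of the 65 the mean log2 ratio was below 0 in WT and above 0 in hrde-1. The 65 were called on the same libraries, and their selection favours such opposite signs.

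The largest differences sat on members with few counts in hrde-1 normoxia. W03B1.1 had 10.03 to 19.9 CPM in WT normoxia and 0 to 9.59 CPM in WT hypoxia, and 0 to 4.32 and 0 to 23.6 CPM in the same order in hrde-1. Its difference was 5.59 ± 1.08 on the log2 scale (edgeR adjusted p = 0.00351). F28A10.9 had medians of 6.36 and 4.06 CPM in WT and of 1.58 and 19 CPM in hrde-1, and K06A4.8 had 9, 3, 1 and 36 counts in WT normoxia, WT hypoxia, hrde-1 normoxia and hrde-1 hypoxia. In the other direction, Y60A9A.3 had medians of 691 and 686 CPM in WT and of 1329 and 691 CPM in hrde-1. Its difference was −0.87 ± 0.24 (edgeR adjusted p = 0.0231).

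The part of the F3 hrde-1 normoxia libraries in these calls was not tested. That group had the lowest mean of the 12 F1 to F3 groups for 31 of the 65 members, and for 155 of all 628, tested or not. A low level in hrde-1 normoxia favours a more positive call, so the 31 are a description. Without the F3 libraries 56 members were more positive and 2 more negative, and 34 of the 56 were among the 65. Without F3 hrde-1 normoxia library 1 alone 126 and 16 were called. With the 4-class library size 22 and 6 were called, and the median of all features was −0.02.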

How the data were processed

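The deposited 22G table holds counts per feature made by the authors. The tools named in the submitters' processing notes are cutadapt 2.5, edgeR, FastQC and featureCounts. Aligner, build and strand setting are not given in the sources used here. The deposited values of the F2 WT normoxia libraries are expected counts (24.4% and 23.6% fractional, multiples of 1/3), and these were rounded. The 5 summary entries, 28.1% to 36.0% of all counts per library, stayed out. Features were matched by gene identifier to WBcel235 (46919 of 46932).

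Counts were tested with edgeR 4.0.16 in R 4.3.3 (robust quasi-likelihood F test, TMM, filterByExpr with minimum count 10, Benjamini-Hochberg over all features tested, threshold 0.05) and with DESeq2 1.42.0 as an alternative, after tests on simulated data. P0 and interaction contrasts came from 16 group means over 32 libraries. The descendant and genotype comparisons had generation as a term. Named members are the 12 most abundant and up to 8 per direction and comparison by fold change. The members and lists were chosen with earlier results of these data known. The planned families by alignment were not analysed here and were read from gene names. No libraries were identical (replicate chi-square per degree of freedom 1.95 to 38.4, the highest in F3 hrde-1 normoxia). Intervals cover counting error only.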

Additional observations from a re-analysis of the deposited data

Results flagged for a closer look

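The hypoxia effect over F1 to F3 differed between hrde-1 and WT, by the edgeR test of that difference, for 16 named pseudogenes. Values are the log2 effect in hrde-1 minus that in WT. It was more positive in hrde-1 for K06A4.8 (6.69), W03B1.1 (5.59), F28A10.9 (5.01), C01G12.12 (4.89), R155.4 (4.76), C03B8.2 (4.75), Y43F8B.21 (4.58) and the F-box pseudogene fbxc-38 (4.46). It was more negative for cTel7X.1 (−4.97), Y102A5C.6 (−2.71), F53H1.2 (−2.12), Y73B6A.6 (−1.96), F52G3.3 (−0.91), F08B4.3 (−0.88), Y60A9A.3 (−0.87) and C25H3.18 (−0.84). The fitted values of members at or near 0 in an arm depend on the prior count: cTel7X.1 had 0 counts in the 6 hrde-1 hypoxia libraries and Y43F8B.21 had 3 counts in the 6 hrde-1 normoxia libraries.

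The calls of C03B8.2 and cTel7X.1 were lost in 19 of the 24 fits that left out 1 library, that of F53H1.2 in 21 and that of F08B4.3 in 15. Those of Y43F8B.21, Y102A5C.6, C25H3.18 and K06A4.8 were lost in 12, 11, 9 and 5, and those of W03B1.1, Y73B6A.6 and fbxc-38 in 1 each. Those of C01G12.12, F28A10.9, R155.4, F52G3.3 and Y60A9A.3 were kept in all 24. Without the F3 libraries W03B1.1 (3.8) and F28A10.9 (2.72) still passed, K06A4.8 was not tested, and the other 13 no longer passed, among them C01G12.12 (0.52) and R155.4 (1.86).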

How the results depend on the processing

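With the 4-class library size the numbers of members called were 117 for genotype under normoxia, 20 for F1 to F3 WT, 0 for F1 to F3 hrde-1, 383 for P0 WT, 8 for P0 hrde-1, 215 for the P0 interaction and 28 for the F1 to F3 interaction. On that scale the P0 WT values reversed for Y105C5A.1271 (0.49), Y17D7C.3 (0.79), T08B6.2 (0.91), Y105C5A.14 (1.15), W05H12.2 (1.36) and Y59H11AR.6 (1.54). The DESeq2 Wald test called 73 members for F1 to F3 WT, 19 for F1 to F3 hrde-1, 17 for P0 WT and 114 for the F1 to F3 interaction. With no filter on low counts the numbers were 76, 17, 21 for P0 WT, 26 for P0 hrde-1 and 3 for the P0 interaction. With only the compared libraries they were 64 for P0 WT and 22 for P0 hrde-1, and without the F3 libraries 24 and 40. Without the F3 libraries Y102A5C.6 reversed in the interaction (0.53). The interaction value of F53H1.2 ranged from −3.28 to 0.83 with 1 library left out, reversing without F2 hrde-1 normoxia library 1. The share of all features called is not given for these fits, so the counts do not set the members apart from the whole table. The causes were not tested.

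With 1 library left out at a time the numbers ranged from 215 to 264 for genotype under normoxia, 235 to 259 under hypoxia, 20 to 50 for F1 to F3 WT, 0 to 9 for F1 to F3 hrde-1, 3 to 5 for P0 WT, 4 to 10 for P0 hrde-1, 51 to 142 for the F1 to F3 interaction and 0 for the P0 interaction. The share of 22G counts without the most abundant member was 13.8% in WT normoxia, 13.6% in WT hypoxia, 13.4% in hrde-1 normoxia and 13% in hrde-1 hypoxia, so that under normoxia the mean of WT lay above that of hrde-1, the reverse of the full share.

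Within a generation, same-numbered libraries of groups that differ in oxygen or genotype did not deviate together (correlations of −0.04 to 0.04). Same-numbered libraries of different generations were not compared, so a pairing by design is not excluded. With the replicate number as a block, 229, 251, 45, 0, 11, 15, 0 and 72 members were called for genotype under normoxia and hypoxia, F1 to F3 WT, F1 to F3 hrde-1, P0 WT, P0 hrde-1 and the interactions at P0 and F1 to F3.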
